A study of Mus musculus with 18 samples.

Results

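Natural killer (NK) cells read the surface of other cells with C-type lectin-like receptors of the Klr families, and 10 genes of these receptors outside the Ly49 (Klra) family are described here: Klrb1b, Klrb1c, Klrc1, Klrc2, Klrd1, Klre1, Klrg1, Klri1, Klri2 and Klrk1. They were chosen by name, as receptor genes of the NK gene complex and the related gene Klrg1. A gene was read from the probe set that carries its symbol alone, and each of the 10 genes has exactly 1 such probe set. They are 10 of 19938 genes with such a probe set, on an array of 35399 probe sets. All 10 genes lie on mouse chromosome 6. In the reference annotation Klre1, Klrd1, Klrk1, Klrc2, Klrc1, Klri1 and Klri2 follow each other in this order with 1 other protein-coding gene, Klrc3, among them. Klrb1c and Klrb1b are direct neighbours, and Klrg1 lies apart, with 112 protein-coding genes between it and Klrb1c.

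mRNA was measured on 18 arrays of splenic NK cells from 6-week-old ICR mice, an outbred stock, described as male or female. The groups were Runx3-/- mice (KO) and Runx3 +/+ mice (WT), and both were injected 2 times, 2 days apart, with a complex of interleukin-15 and its alpha receptor, which activates NK cells and makes them divide. No group without the injections is analysed here. NKp46+ cells were sorted into CD27+CD11b- cells (CD27, immature), CD27+CD11b+ cells (DP) and CD27-CD11b+ cells (CD11b), in the order in which NK cells mature, with 3 arrays for each subset and genotype. Runx3, the deleted gene, encodes a transcription factor with a Runt domain. The labels state neither where the deletion lies nor whether an array is of 1 animal or of a pool. The p-values measure the spread between these arrays, which may be technical in part.

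The receptors divide by ligand and signal. Klrb1b (NKR-P1B) is inhibitory and binds Clr-b, the product of Clec2d, while Klrb1c (NK1.1) is activating. Klrd1 (CD94) pairs with Klrc1 (NKG2A) into an inhibitory receptor, or with Klrc2 (NKG2C) into an activating one, for the nonclassical MHC molecule Qa-1. Klre1 pairs, in rodents, with Klri1 into an inhibitory receptor or with Klri2 into an activating one. Klrk1 (NKG2D) is activating and binds the stress-induced Rae-1, H60 and MULT1 proteins. Klrg1 is an inhibitory receptor for cadherins, and it marks the most mature NK cells.

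Values are log2 intensities that the authors normalised by RMA (robust multi-array average). A difference of 1 is a 2-fold difference, and levels of different probe sets are not compared. A difference is said to pass where limma, fitted to all probe sets and arrays, gave a Benjamini-Hochberg adjusted p under 0.05. Runx3 was lower in KO than in WT cells by 1.43-fold in CD27, 1.55-fold in DP and 1.40-fold in CD11b cells (limma, adjusted p = 0.0416, 0.0175 and 0.0416), although the place of its probe set relative to the deletion is not known here. Ncr1, which encodes NKp46, had group means of 13.58 to 13.75, and the genes of the gates followed them: Cd27 averaged 9.48 in CD11b KO and 11.63 in CD27 KO cells, and 9.87 in CD11b WT and 11.80 in CD27 WT cells, while Itgam (CD11b) averaged 12.16 and 9.50 in the same KO subsets and 12.60 and 10.14 in the WT subsets. The 3 arrays of KO replicate 3 stood apart. The mean log2 level of a cell cycle list (12 of 13 genes measured) was 10.98, 11.32 and 11 on its CD27, DP and CD11b arrays, against 7.91 to 8.89 on the other KO arrays and 7.35 to 7.67 on the WT arrays. Its CD11b array also had mean levels of 8.70 for 7 neutrophil markers and 10.1 for 8 dendritic cell and MHC class II markers, against 5.40 to 5.45 and 6.14 to 6.87 on the other CD11b KO arrays and 5.33 to 5.43 and 6.09 to 6.20 on the CD11b WT arrays. Where leaving out these 3 arrays changes a call described below, the value without them is given. Xist, which is expressed from the inactive X chromosome, was at 12.64 to 13 log2 on the arrays of KO replicate 3 and at 5.13 to 5.62 on those of KO replicates 1 and 2, and at 12.48 to 12.92 on those of WT replicates 2 and 3 and at 5.19 to 5.69 on those of WT replicate 1. Its level thus split the arrays by replicate number in the same way in all 3 subsets, with 1 high number in KO and 2 in WT. High and low levels, as of female and male mice, occurred in every group, in unequal numbers between the genotypes. The 3 arrays of a group were thus not all repeats of 1 sample. Depth is not a count on arrays. The number of arrays limits the precision, and the median SD within groups was 0.14 log2.

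Because Runx3 binds DNA at the Runt motif, the promoters of the receptor genes were searched for it. RefSeq promoters (GRCm38.p6) were matched for 7 of the 10 genes, and the 250 bases before each start were searched on both strands for TGTGGT and TGCGGT. All matches found were of TGTGGT. A match was found for 5 of the 7 genes and none for Klrb1b and Klri1. A match is held by 18.6% of all 32851 RefSeq promoters, and by 20.9% of all 27025 genes. A match describes the letters only. Klrd1, Klrg1 and Klri2 were not searched. The stretches around the matches are given 5′ to 3′ on the strand of the gene, with the motif in capitals; ACCACA is TGTGGT read on the opposite strand.
Klrb1c, chr6:128788685-128788770, minus strand: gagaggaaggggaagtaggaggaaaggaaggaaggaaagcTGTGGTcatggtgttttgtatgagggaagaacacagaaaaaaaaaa
Klrc1, chr6:129679015-129679100, minus strand: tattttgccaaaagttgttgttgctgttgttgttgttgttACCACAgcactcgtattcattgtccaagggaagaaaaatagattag
Klrc2, chr6:129660597-129660672, minus strand: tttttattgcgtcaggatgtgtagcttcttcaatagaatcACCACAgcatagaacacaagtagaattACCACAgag
Klre1, chr6:129577963-129578029, plus strand: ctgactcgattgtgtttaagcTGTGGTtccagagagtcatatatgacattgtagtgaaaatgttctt
Klrk1, chr6:129623948-129624033, minus strand: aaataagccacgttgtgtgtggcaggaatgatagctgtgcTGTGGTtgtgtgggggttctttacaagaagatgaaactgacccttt
The match began 89 bases before the start of Klrb1c, 87 before that of Klrc1, 229 before that of Klre1 and 129 before that of Klrk1. Klrc2 had 2 matches, which began 36 and 9 bases before its start.

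Across the 6 groups the receptor genes moved little, with 1 exception. The highest and the lowest group mean of Klrg1 differed by 2.25 log2, or 4.75-fold. For the other 9 genes this range was 0.18 (Klrd1) to 0.46 log2 (Klrc2 and Klre1), or 1.14-fold to 1.38-fold. The plot of all arrays shows every value behind these ranges.

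**Figure D1:**
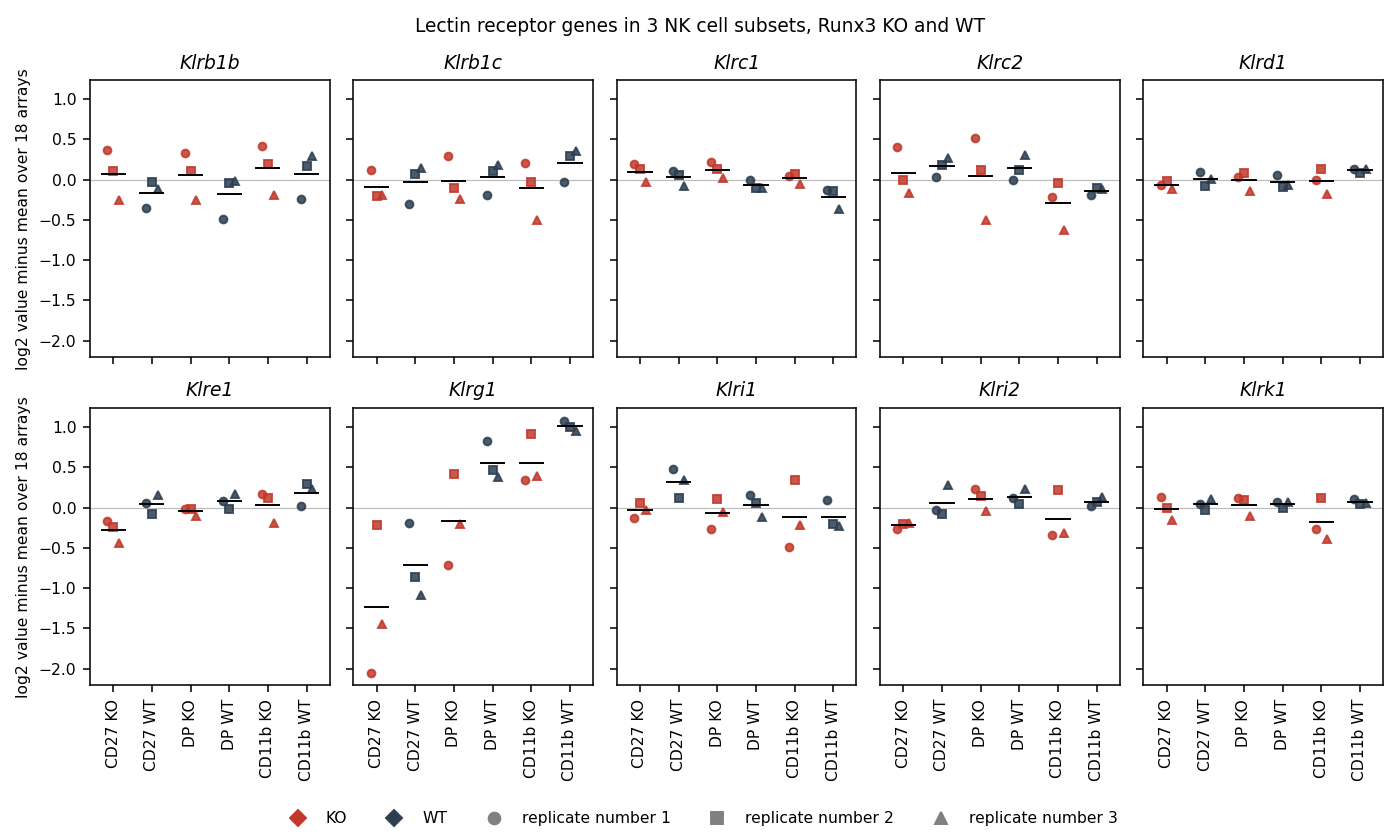
Log2 value of each array minus the mean of that gene over 18 arrays (vertical axis), for the 10 receptor genes in 6 groups (horizontal axis, KO left of WT in each subset); symbols are replicate numbers and bars are group means of 3 arrays. Klrg1 spans 2.25 log2 between group means, while the other 9 genes span 0.18 to 0.46 log2.

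The comparison of subsets asks how the receptors change as NK cells mature. Klrg1 was the gene that rose from the immature to the most mature cells, in both genotypes. In CD27 cells it had values of 10.38, 12.21 and 10.99 on the KO arrays, against 12.24, 11.57 and 11.35 on the WT arrays. In DP cells the values were 11.72, 12.85 and 12.23 in KO and 13.26, 12.90 and 12.81 in WT. In CD11b cells they were 12.78, 13.34 and 12.82 in KO and 13.51, 13.43 and 13.38 in WT. All CD11b arrays lay above all CD27 arrays of the same genotype. In this comparison 15.3% of all probe sets do not overlap in KO cells and 28.3% in WT cells. In CD11b KO cells Klrg1 averaged 12.98 ± 0.31, against 11.19 ± 0.94 in CD27 KO cells (SD, n = 3 arrays each), which is 3.44-fold higher (95% interval 1.94 to 6.10; limma, adjusted p = 0.0268). In CD11b WT cells it averaged 13.44 ± 0.06, against 11.72 ± 0.46 in CD27 WT cells, which is 3.29-fold higher (1.86 to 5.84; limma, adjusted p = 0.0176).

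The rise of Klrg1 did not differ detectably between the genotypes: the KO difference minus the WT difference was 0.06 log2 (95% interval -1.10 to 1.23), an interval that allows a difference of up to 2.35-fold. With the replicate number as a block within genotype the interval was -0.56 to 0.69, which allows up to 1.61-fold. The single steps did not pass. DP minus CD27 was 1.07 in KO and 1.27 in WT cells (limma, adjusted p = 0.762 and 0.245), and CD11b minus DP was 0.71 in KO and 0.45 in WT cells (adjusted p = 0.692 and 0.871). Ordered by mean, the groups ran from CD27 KO (11.19) over CD27 WT (11.72), DP KO (12.26), CD11b KO (12.98) and DP WT (12.99) to CD11b WT (13.44). The arrays of neighbouring groups in this order overlapped, except those of DP WT and CD11b WT, between which 16.2% of all probe sets do not overlap. The KO rise was lost without the 3 arrays of KO replicate 3 (1.76 log2, adjusted p = 0.142), without CD27 KO replicate 1 (1.38 log2, 0.111) or 3 (0.0887), and without CD11b KO replicate 1 (0.0688), 2 (0.0853) or 3 (0.0517), and it did not pass when only the groups compared were fitted (0.282). The WT rise was lost without CD27 WT replicate 2 (adjusted p = 0.0674) or 3 (0.0811) and without CD11b WT replicate 1 (0.0662) or 2 (0.0576). With the replicate number as a block within genotype both rises passed (limma with the block, adjusted p = 0.000647 in KO and 0.000361 in WT). The intervals were then 2.54-fold to 4.67-fold in KO and 2.43-fold to 4.47-fold in WT cells.

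The means of 2 lists of markers of other cells moved with the same comparison, through part of their genes. The mean level of the markers of other innate lymphoid cells (5 of 7 genes measured) was 7.89 to 8.60 in CD11b KO and 10 to 10.55 in CD27 KO arrays, and 8.03 to 8.26 in CD11b WT and 10.08 to 10.61 in CD27 WT arrays. The T cell list (9 of 10 genes measured) had means of 6.11 to 6.56 in CD11b KO and 6.79 to 6.93 in CD27 KO arrays, and of 5.88 to 6.12 in CD11b WT and 7.19 to 7.62 in CD27 WT arrays. In WT cells 3 of the 5 and 4 of the 9 genes passed as lower in CD11b cells, where 2.13% of all probe sets did. Il7r averaged 11.77 in CD27 and 6.19 in CD11b WT cells, and Cd3g 12.37 and 10.15. Gata3 averaged 10.83 and 10.61 in these groups, and Cd4 4.97 and 4.92. Whether other cells or the NK cells themselves gave these levels was not tested, nor was the part of these genes in the result. In sorted pools, fewer cells with a transcript and less transcript per cell cannot be told apart.

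Klrg1 was the 1 of 10 receptor genes that passed for CD11b against CD27 in KO cells, where 2.07% of all probe sets passed, and the 1 of 10 in WT cells, where 5% passed. The median difference of the 10 genes was 0.02 in KO and 0.07 in WT cells, against 0.02 over all probe sets in both. For the single steps 0 of 10 passed with limma. In KO cells this holds for DP against CD27 (3 of 10 at an unadjusted p under 0.05; 0.0198% of all probe sets passed) and for CD11b against DP (0 of 10 unadjusted; 0.514%). In WT cells it holds likewise for DP against CD27 (1 of 10 unadjusted; 0.557%) and for CD11b against DP (0 of 10 unadjusted; 0.525%).

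WT arrays with the same number deviated together between CD11b and each of the other subsets, and with the number as a block within genotype 4 of 10 genes passed for CD11b against CD27 in WT cells, where 10.9% of all probe sets did. These were Klrg1 (adjusted p = 0.000361) and 3 genes with much smaller differences. Klri1, the inhibitory partner of Klre1, had 12.43, 12.13 and 12.11 in CD11b WT cells, against 12.82, 12.46 and 12.68 in CD27 WT cells. It was 1.35-fold lower (1.14 to 1.59; limma with the block, adjusted p = 0.0301, and 0.218 without it). Klrc1, the inhibitory NKG2A chain, had 12.40, 12.39 and 12.16 in CD11b WT cells, against 12.64, 12.59 and 12.45 in CD27 WT cells. It was 1.19-fold lower (1.09 to 1.29; adjusted p = 0.0128 with the block and 0.120 without it). All CD11b WT arrays of both genes lay below all CD27 WT arrays. Of the 10 genes 3 were lower and 1 higher without overlap, where 28.3% of all probe sets do not overlap. Klrb1b, the Clr-b receptor, went the other way, with 12.58, 12.99 and 13.11 in CD11b WT cells against 12.46, 12.79 and 12.70 in CD27 WT cells. Its arrays overlapped, but each number was higher in CD11b cells, by 0.13, 0.20 and 0.40, and the gene was 1.18-fold higher (1.09 to 1.29; adjusted p = 0.0185 with the block and 0.638 without it). Klrb1b also passed with the block for CD11b against DP in WT cells, as 1 of 10 genes where 2.40% of all probe sets passed (1.2-fold, 1.1 to 1.31; adjusted p = 0.0406 with the block and 0.853 without it).

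In KO cells the same 3 genes did not pass for CD11b against CD27. The differences were -0.09 for Klri1, -0.07 for Klrc1 and 0.07 log2 for Klrb1b (limma with the block, adjusted p = 0.722, 0.516 and 0.542). Klre1 was 1.23-fold higher in CD11b than in CD27 KO cells (1.09 to 1.39) and did not pass (limma with the block, adjusted p = 0.0501). Klrc2 was 1.29-fold lower and did not pass either (1.07 to 1.56; adjusted p = 0.118). Whether genotype changed the differences of Klri1, Klrc1 and Klrb1b was tested as an interaction with the same block. The KO difference minus the WT difference was 0.34 for Klri1 (95% interval 0 to 0.68), 0.18 for Klrc1 (0.01 to 0.34) and -0.17 log2 for Klrb1b (-0.35 to 0). None of the 3 passed (limma with the block, adjusted p = 0.478, 0.444 and 0.484), and of the 10 genes 0 passed (2 of 10 at an unadjusted p under 0.05, Klrc1 and Klrb1c), where 0.331% of all probe sets did. Without the block the intervals were -0.19 to 0.87, -0.08 to 0.43 and -0.81 to 0.46. Over all subsets 0 of 10 genes passed the test of interaction of genotype and subset (limma's moderated F test; 0 of 10 at an unadjusted p under 0.05), where 0.0113% of all probe sets passed, and again 0 of 10 with the block (0 of 10 unadjusted), where 0.116% passed.

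**Figure D2:**
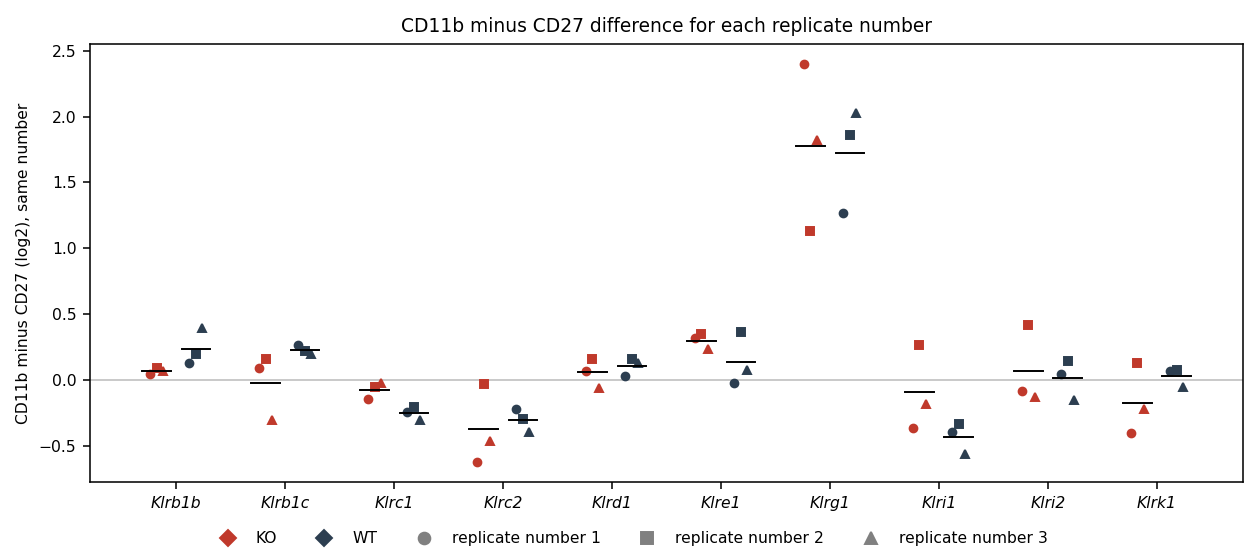
CD11b minus CD27 difference in log2 for each replicate number (vertical axis) of the 10 receptor genes (horizontal axis, KO left of WT); bars are means of 3 numbers. Klrg1 lies between 1.13 and 2.40 in KO and between 1.27 and 2.03 in WT, and Klri1 and Klrc1 are below 0 at all 3 numbers in WT.

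The comparison of KO with WT cells asks which receptors depend on Runx3 in activated NK cells. None of the 10 passed with limma: 0 of 10 in CD27 cells (1 at an unadjusted p under 0.05), where 0.907% of all probe sets passed, 0 of 10 in DP cells (1 unadjusted), where 0.395% passed, and 0 of 10 in CD11b cells (2 unadjusted), where 1.29% passed. The median difference of the 10 genes was -0.08, -0.03 and -0.16 log2 in these subsets, against -0.01, -0.02 and -0.01 over all probe sets. Averaged over the subsets 0 of 10 passed as well (4 unadjusted), where 8.08% of all probe sets did, with a median of -0.13, against -0.02 over all probe sets. The average counts arrays of the same number as independent. Without KO replicate 3 the counts were again 0 of 10 in each subset, and 1 of 10 in the average (Klrc1).

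**Figure D3:**
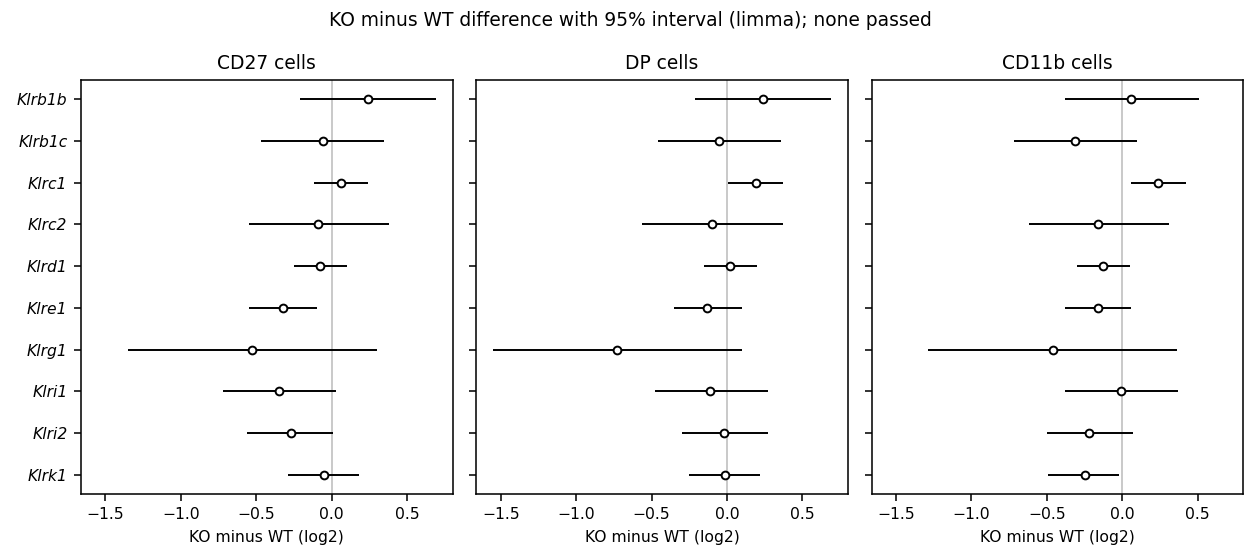
KO minus WT difference in log2 (horizontal axis) of the 10 receptor genes (vertical axis) in CD27, DP and CD11b cells; points are differences of means of 3 arrays and lines are 95% intervals from limma. None passed, and the intervals of Klrg1 are the widest of the 10 genes in each subset.

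Among the receptors for MHC-like ligands, Klrc1 was the gene closest to the threshold on the side of higher levels in KO. In DP cells it had 12.75, 12.66 and 12.55 in KO, against 12.53, 12.43 and 12.42 in WT. In CD11b cells the values were 12.58, 12.60 and 12.48 in KO and 12.40, 12.39 and 12.16 in WT. All KO arrays lay above all WT arrays in both subsets. The genotypes do not overlap for 14.6% of all probe sets in DP and 18.7% in CD11b cells. The difference was small, at 0.19 log2 in DP (95% interval 0.01 to 0.37; limma, adjusted p = 0.478) and 0.24 log2 in CD11b cells (0.06 to 0.42; adjusted p = 0.224). In CD27 cells, where the arrays overlapped, it was 0.06 (-0.12 to 0.24). The average over subsets was 0.17 log2, or 1.12-fold (1.04 to 1.21; adjusted p = 0.0503), and 0.22 log2 without KO replicate 3 (adjusted p = 0.0227). With the arrays of a genotype and number averaged first, so that 3 values faced 3, it was far from the threshold (adjusted p = 0.440).

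Its partner Klrd1 (CD94) was the steadiest of the 10 genes. It averaged 13.21 ± 0.04, 13.27 ± 0.12 and 13.27 ± 0.15 in KO CD27, DP and CD11b cells (SD, n = 3), against 13.29 ± 0.09, 13.25 ± 0.08 and 13.40 ± 0.03 in WT cells. KO minus WT was -0.08 (-0.25 to 0.10), 0.02 (-0.15 to 0.20) and -0.13 log2 (-0.30 to 0.05), so a change of more than 0.30 log2 lies outside all 3 intervals. Klrc2, the activating NKG2C chain, averaged 10.98 ± 0.29, 10.95 ± 0.52 and 10.61 ± 0.30 in KO and 11.07 ± 0.12, 11.05 ± 0.16 and 10.77 ± 0.04 in WT. Its arrays overlapped between the genotypes in every subset, and the differences of -0.09, -0.10 and -0.16 log2 had intervals that reach -0.62 and 0.38. Klrc1, Klrc2 and Klrc3 are similar in sequence, and whether their probe sets pick up each other's transcripts was not tested.

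Klre1, the common chain of the KLRE/KLRI receptors, was the gene closest to the threshold on the side of lower levels in KO. In CD27 cells it had 10.68, 10.61 and 10.41 in KO, against 10.90, 10.77 and 11 in WT, and the arrays did not overlap. The difference was -0.32 log2, which is 1.25-fold lower (1.07 to 1.46; limma, adjusted p = 0.203). In DP and CD11b cells it was -0.13 (-0.35 to 0.10) and -0.16 log2 (-0.38 to 0.06), and the average was -0.20 log2 (adjusted p = 0.0529), with -0.13 log2 without KO replicate 3 (adjusted p = 0.195). Both KLRI partners also had lower values in KO CD27 cells. Klri1 had 12.21, 12.40 and 12.31 in KO CD27 cells, against 12.82, 12.46 and 12.68 in WT. Klri2 had 12.60, 12.67 and 12.68 in KO CD27 cells, against 12.84, 12.79 and 13.15 in WT. No KO array reached the lowest WT array for either gene. With Klre1 this holds for 3 of 10 genes in CD27 cells, where 16.4% of all probe sets do not overlap in either direction. The differences of Klri1 and Klri2 were -0.35 (-0.72 to 0.03; adjusted p = 0.476) and -0.27 log2 (-0.56 to 0.01; adjusted p = 0.457), neither of which passed. In DP cells they were -0.11 and -0.02 log2, and in CD11b cells -0.01 and -0.22 log2, with overlapping arrays.

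The activating receptor Klrk1 (NKG2D) averaged 12 ± 0.15, 12.04 ± 0.12 and 11.83 ± 0.27 in KO CD27, DP and CD11b cells, against 12.05 ± 0.07, 12.06 ± 0.04 and 12.08 ± 0.03 in WT (SD, n = 3). In CD11b cells the KO arrays had 11.74, 12.13 and 11.62 and the WT arrays 12.12, 12.06 and 12.07. KO replicate 2 was thus at the level of WT while replicates 1 and 3 were below it. The difference of -0.25 log2 (-0.49 to -0.02) did not pass (limma, adjusted p = 0.347), and it did without CD11b KO replicate 2 (adjusted p = 0.0289). On CD11b KO replicates 1, 2 and 3 the dendritic cell and MHC class II list averaged 6.87, 6.14 and 10.1. A macrophage and monocyte list averaged 5.93, 5.43 and 7.5, and the neutrophil list 5.4, 5.45 and 8.7. The array left out for this call was thus not one with raised markers of other cells. The part of these levels in the Klrk1 values was not tested. Klrb1c (NK1.1) averaged 12.43 ± 0.18, 12.50 ± 0.27 and 12.41 ± 0.36 in KO and 12.49 ± 0.24, 12.55 ± 0.19 and 12.72 ± 0.20 in WT, and KO minus WT was -0.06, -0.05 and -0.31 log2 (adjusted p = 0.962, 0.957 and 0.541). Klrb1b averaged 12.89 ± 0.31, 12.88 ± 0.30 and 12.96 ± 0.30 in KO and 12.65 ± 0.17, 12.64 ± 0.27 and 12.90 ± 0.27 in WT, with differences of 0.24, 0.24 and 0.06 log2 (adjusted p = 0.779, 0.750 and 0.957). The arrays of both Klrb1 genes overlapped between the genotypes in every subset.

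Klrg1 had the lowest KO values relative to WT, and also the largest spread. KO minus WT was -0.53 log2 in CD27 (-1.35 to 0.30), -0.73 in DP (-1.55 to 0.10) and -0.46 in CD11b cells (-1.29 to 0.36), and none passed (limma, adjusted p = 0.698, 0.584 and 0.700). These intervals hold no change as well as a level of up to 2.93-fold lower in KO DP cells. The 3 KO arrays of CD11b cells lay below the 3 WT arrays, and those of CD27 and DP cells overlapped. In CD11b cells 18.7% of all probe sets do not overlap between the genotypes. The average was 1.49-fold lower (1.07 to 2.07; adjusted p = 0.147), and without CD27 KO replicate 2, the highest of the CD27 KO arrays, it passed (adjusted p = 0.0184).

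The spread within groups followed the replicate number for several of these genes. The labels number the arrays 1 to 3 in each group without saying that a number is 1 animal. The share of a gene's variance within groups that same-numbered arrays of a genotype have in common was computed as an intraclass correlation over the 3 subsets, and its median over all probe sets was 0.17. It was 0.96 for Klrb1b, a value that 1.07% of all probe sets reach, and 0.86 for its neighbour Klrb1c, which 4.90% reach. It was 0.77 for Klrc1, 0.72 for Klrd1 and for Klrg1, 0.68 for Klrc2 and 0.61 for Klri1. For Klre1, Klrk1 and Klri2 it was 0.46, 0.42 and 0.22.

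Klrb1b shows the pattern most plainly. KO replicate 1 had 13.18, 13.15 and 13.23 in CD27, DP and CD11b cells, while KO replicate 3 had 12.56, 12.56 and 12.63. WT replicate 1 had 12.46, 12.33 and 12.58, below both other WT arrays of each subset. Klrb1c deviated the same way, by 0.28 log2 on average for KO replicate 1, by -0.24 for KO replicate 3 and by -0.24 for WT replicate 1, each with the same sign in 3 of 3 subsets. Klrg1 and Klri1 shared another order. KO replicate 2 was above and KO replicate 1 below the group mean in 3 of 3 subsets, by 0.66 and -0.52 log2 for Klrg1 and by 0.25 and -0.22 log2 for Klri1, and WT replicate 1 was above it by 0.28 and 0.17 log2. The arrays of KO replicate 3 lay below the group mean in 3 of 3 subsets for Klrb1b, Klrb1c, Klrc1, Klrc2, Klrd1, Klre1, Klrg1 and Klrk1. On these arrays the cell cycle list, the dendritic cell and MHC class II list and Xist were the highest of the KO arrays in each subset. The mean of an NK cell list, which holds Klrk1 and Klrb1c, was the lowest of the KO arrays in each subset. It was 12.68, 12.8 and 12.75 in CD27, DP and CD11b cells, against 12.86 to 13.06 on the other KO arrays. The part of these levels in the deviations was not tested.

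**Figure D4:**
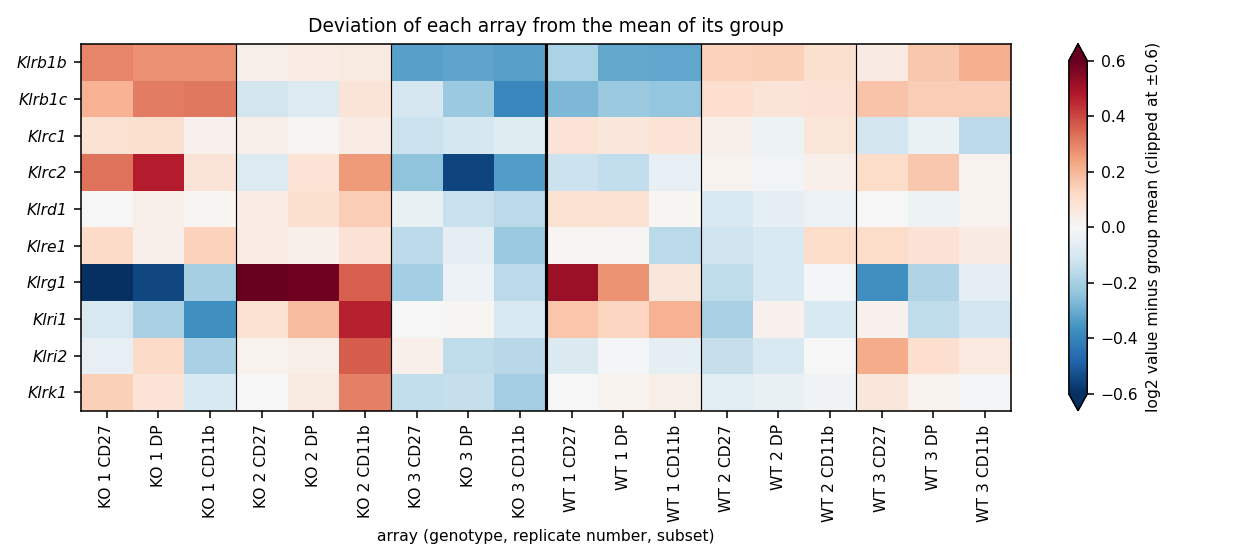
Deviation of each array from its group mean in log2 (colour, red above and blue below, clipped at 0.6) for the 10 receptor genes (vertical axis) and 18 arrays ordered by genotype, replicate number and subset (horizontal axis, KO left of WT). Blocks of 1 colour over 3 subsets mark numbers that deviate together, as for Klrb1b in KO replicates 1 and 3.

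Among the other lectin-like genes of the complex, Klrb1a was higher and Klrh1 lower in KO CD27 cells. Of 15 listed genes 14 were measured. In CD27 cells 1 passed as higher and 1 as lower in KO (limma), where 0.907% of all probe sets passed, and in DP cells 1 passed as higher and 0 as lower, where 0.395% passed. In CD11b cells 0 passed (2 at an unadjusted p under 0.05), where 1.29% of all probe sets did. Their median KO minus WT difference was 0.00, -0.01 and -0.04 log2. Klrb1a, which encodes the activating receptor NKR-P1A and belongs to the same family as Klrb1b and Klrb1c, had 11.84, 11.76 and 12.28 in KO CD27 cells, against 10.26, 10.43 and 11.02 in WT. In DP cells it had 12.04, 11.86 and 12.09 in KO and 11.05, 10.84 and 11.06 in WT. In CD11b cells it had 11.68, 12.21 and 11.82 in KO and 11.59, 11.61 and 11.72 in WT. KO arrays lay above WT arrays in CD27 and DP cells and overlapped with them in CD11b cells. Of all probe sets 16.4% do not overlap between the genotypes in CD27 cells and 14.6% in DP cells.

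Klrb1a was thus 2.63-fold higher in KO CD27 cells (2.00 to 3.46; limma, adjusted p = 0.00251) and 2.02-fold higher in KO DP cells (1.54 to 2.66; adjusted p = 0.0262), while the difference of 0.26 log2 in CD11b cells did not pass (-0.14 to 0.66; adjusted p = 0.619). When only the groups compared were fitted, neither passed (adjusted p = 0.156 in CD27 and 0.0571 in DP cells). The DP difference was also lost without the arrays of KO replicate 3 (adjusted p = 0.0665), without DP WT replicate 2 (0.141) or 3 (0.0901) and without DP KO replicate 1 (0.115), 2 (0.0575) or 3 (0.121). Across maturation Klrb1a was 2.1-fold higher in CD11b than in CD27 WT cells (1.6 to 2.76; adjusted p = 0.00316), and CD11b minus CD27 was -0.06 log2 in KO cells (-0.46 to 0.33; adjusted p = 0.939). The difference between these was -1.13 log2 (95% interval -1.69 to -0.57), with an unadjusted p of 0.000658 that did not pass over all probe sets (adjusted p = 0.286). The mean of the T cell list was lower in KO than in WT CD27 arrays (6.79 to 6.93 against 7.19 to 7.62). Of its 9 measured genes 4 lay lower in KO without overlap and 1, Cd4, higher, where 16.4% of all probe sets do not overlap. The mean of the cell cycle list was higher in KO arrays of every subset. The part of both lists in the Klrb1a difference was not tested.

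Klrh1, the gene next to Klri2, went the other way and at values below 6.33, the median of all probe set means. It had 5.33, 5.39 and 5.32 in KO CD27 cells, against 6.04, 5.95 and 6.28 in WT. It was 1.67-fold lower there (1.46 to 1.91; limma, adjusted p = 0.00129, and 0.116 when only the groups compared were fitted), and KO minus WT was -0.24 in DP and -0.18 log2 in CD11b cells, which did not pass. In WT cells Klrh1 fell to 5.56 ± 0.09 in DP cells, against 6.09 ± 0.17 in CD27 cells (adjusted p = 0.0140; lost without CD27 WT replicate 3 or DP WT replicate 1, and with only the groups compared, at 0.222). Averaged over subsets 2 of the 14 genes passed as higher in KO (Klrb1a and Klrb1f) and 2 as lower (Klrh1 and Clec2d), where 8.08% of all probe sets passed, 2.80% as higher and 5.28% as lower. Klrb1f, another receptor of the NKR-P1 family, differed by 0.15 log2 (adjusted p = 0.0350), a call lost with any 1 of 9 arrays left out. Clec2d, which encodes the Clr-b ligand of Klrb1b, differed by -0.30 log2 (adjusted p = 0.00654), with all KO arrays below all WT arrays in each subset. The genotypes do not overlap for 16.4%, 14.6% and 18.7% of all probe sets in CD27, DP and CD11b cells. In WT cells Klrb1f and Klrh1 were also 1.34-fold and 1.44-fold lower in CD11b than in CD27 cells (adjusted p = 0.00287 and 0.00277). None of the 4 passed with the arrays of a genotype and number averaged first (adjusted p = 0.0600 for Klrb1a, 0.393 for Klrb1f, 0.106 for Klrh1 and 0.233 for Clec2d).

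**Figure D5:**
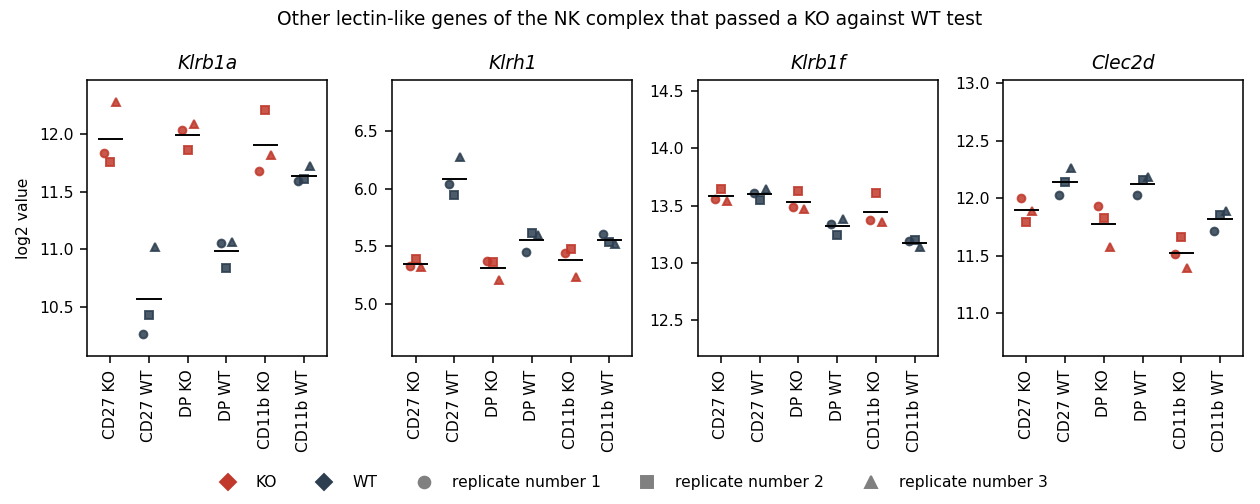
Log2 value (vertical axis, each panel with the same span) of Klrb1a, Klrh1, Klrb1f and Clec2d on each array in 6 groups (horizontal axis, KO left of WT); symbols are replicate numbers and bars are means of 3 arrays. Klrb1a lies between 11.76 and 12.28 in KO CD27 cells, above the 10.26 to 11.02 of WT CD27 cells.

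Of the ligand and signalling genes none passed between the genotypes in a single subset. Of 15 ligand genes 7 were measured and 0 passed in any subset (limma; 1, 1 and 2 at an unadjusted p under 0.05 in CD27, DP and CD11b cells), and Clec2d was the 1 that passed in the average, where 8.08% of all probe sets did. Of 24 adaptor and signalling genes 23 were measured, and 0 passed in any subset (4 unadjusted in each). Tyrobp (DAP12) and Hcst (DAP10), the adaptors of the activating receptors, passed in no comparison. In the average 4 of 23 were lower in KO, where 5.28% of all probe sets were: Pik3cd, a phosphoinositide 3-kinase subunit (-0.35 log2, adjusted p = 0.00216), Ptpn6, the phosphatase SHP-1 recruited by inhibitory receptors (-0.54, 0.0120), the exchange factor Vav1 (-0.20, 0.0172) and the adaptor Sh2d1b1 (-0.26, 0.0465). None of these 4 passed with the arrays of a genotype and number averaged first (adjusted p = 0.225, 0.270, 0.319 and 0.425), and without KO replicate 3 Vav1 (0.0800) and Sh2d1b1 (0.124) did not pass. The exchange factor Vav3 had 8.95, 8.81 and 8.55 in KO CD11b cells, against 7.96, 7.85 and 8.19 in WT. All KO arrays lay above all WT arrays, where 18.7% of all probe sets do not overlap between the genotypes. The difference of 0.77 log2 (0.26 to 1.28) did not pass (limma, adjusted p = 0.153). Without the arrays of KO replicate 3 it passed, in CD11b cells (0.88 log2, adjusted p = 0.00885) and in the average (0.59 log2, 0.000888, against 0.38 log2 and 0.119 with them). The average also passed with cyclic loess (0.0400), and with the arrays of a number averaged first it did not (0.547).

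For CD11b against CD27 cells 1 of 23 signalling genes passed in KO (Plcg2, as higher), where 2.07% of all probe sets passed, and 3 of 23 in WT (2 as higher and 1 as lower), where 5% passed. In WT cells Plcg2, a phospholipase downstream of activating receptors, was 1.45-fold higher in CD11b than in CD27 cells (1.25 to 1.70; limma, adjusted p = 0.00681, and 0.0652 with only the groups compared), and in KO cells it was 1.63-fold higher (1.39 to 1.90; adjusted p = 0.00220). The adaptor Lat2 was 1.46-fold higher in CD11b than in CD27 WT cells (adjusted p = 0.0247), a call that leaving out any 1 of 5 of the 6 arrays ends. Vav3 had 7.96, 7.85 and 8.19 in CD11b WT cells, against 9.26, 9.19 and 9.30 in CD27 WT cells, and was 2.37-fold lower (1.67 to 3.38; adjusted p = 0.00631). In KO cells Vav3 differed by -0.61 log2 and did not pass (adjusted p = 0.261), but did with the replicate block (0.0064) and without KO replicate 3 (0.0233). Plcg1 was 2.30-fold higher in CD11b than in DP WT cells (1.74 to 3.03; adjusted p = 0.00801, and 0.0631 with only the groups compared), at values of 5.34 to 6.94 near the median of all probe sets, and 2 of 18 leave-one-out fits ended this call (adjusted p of up to 0.0521).

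The genes whose 6 group means ran most like those of the 2 receptor genes with the widest range were ranked by the root-mean-square difference of centred means. For Klrg1 these were Fcgr2b (0.18 log2), Rac3 (0.27), Pald1 (0.28), Sema6a (0.28) and Fry (0.29). Fcgr2b, an inhibitory Fc receptor gene, averaged 6.14, 6.82 and 7.59 in KO CD27, DP and CD11b cells and 6.64, 7.80 and 7.94 in WT cells. Since it was picked for its likeness to Klrg1, the shared order of KO below WT is no separate result. For Klre1 they were Inpp5f, Atp6v0a2, Bcl2l2, Aagab and Klhl2, all within 0.03 log2 and with ranges of 0.40 to 0.46 log2 over the groups. With 6 means and small ranges, many genes can lie this close.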

How the data were processed

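mRNA of sorted NK cells was amplified, labelled with biotin and hybridised to Mouse Gene 1.0 ST arrays. The deposited log2 values were made by the authors with RMA and Partek, per the submitters' processing notes, which give no versions, and were used as they stand. Columns were matched to samples by title, with 0 columns unused. Of 35399 probe sets 21789 carry 1 gene symbol, 1621 several and 11989 are not listed, and all were tested. With limma 3.58.1 in R 4.3.3, 1 mean per group was fitted to 18 arrays (12 residual and 2.18 prior degrees of freedom), and contrasts were tested two-sided with Benjamini-Hochberg adjustment over all probe sets. An exact permutation test of 3 against 3 arrays cannot give a p under 0.1, so it was not used.

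The 10 genes and the gene lists (other lectin-like genes, ligands, signalling genes, markers) were chosen with earlier results of these data known. All 10 genes are named, and from each list other than the markers every gene that passes between genotypes and up to 4 that pass between WT subsets. Alternatives were cyclic loess, a prior variance that follows intensity, fitted robustly (statmod 1.5.0), probe sets above the median, only the groups compared, a single probe set kept for each gene, the array number as a block, single arrays left out and KO replicate 3 left out; chosen after seeing the data were Xist as a covariate, averaging arrays of a number and the block in the test of interaction. Same-numbered arrays deviated together over all probe sets within KO (r of 0.213 to 0.642) and between CD11b and the other subsets in WT (0.218 to 0.456), so blocked values are given for these. The procedure was tested on simulated data, for KO against WT in CD27 cells and for CD11b against CD27 in WT cells. Effects shared by a replicate number were simulated only for the fit with the block. The average over subsets was not simulated.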

Additional observations from a re-analysis of the deposited data

Results flagged for a closer look

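For Klrc1, the inhibitory NKG2A chain, the DP minus CD27 difference had opposite signs in the genotypes at every replicate number. It was 0.03, 0.01 and 0.05 log2 in KO, with a mean of 0.03, against -0.11, -0.17 and -0.04 log2 in WT, with a mean of -0.11. Neither difference passed (limma, adjusted p = 1 in KO and 0.858 in WT), and the arrays of the subsets overlapped in both genotypes. Whether the numbers of WT DP and CD27 arrays pair is unclear, with r of 0.440, 0.139 and -0.009 for numbers 1, 2 and 3. The KO difference minus the WT difference was 0.13 log2 (95% interval -0.12 to 0.39), and the test of interaction did not pass (limma's moderated F test, adjusted p = 1).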

How the results depend on the processing

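KO against WT kept 0 of 10 receptor genes in CD27 and DP cells under every alternative run. In CD11b cells it gave 1 with a fixed replicate block over both genotypes (Klrc1, adjusted p = 0.0328) and 0 to 1 with single arrays left out. For the average, 0 became 1 with cyclic loess, with an intensity trend and robust prior, with the number as a fixed block and without the arrays of KO replicate 3 (Klrc1 each time), 2 with only probe sets above the median, with 1 probe set per gene and with Xist as a covariate (Klrc1 and Klre1), and 0 to 2 with single arrays left out. CD11b against CD27 in WT cells gave 2 (Klrg1 and Klrc1) with cyclic loess, with the number as a fixed block, with the random block and with Xist, 4 with the replicate block fixed within genotype, and 0 to 1 with single arrays left out. In KO cells it gave 0 with only the groups compared and without KO replicate 3, and 0 to 1 with single arrays left out. With the replicate block fixed within genotype, DP against CD27 in WT gave 1 (Klrg1, adjusted p = 0.0105) and CD11b against DP in WT gave 1 (Klrb1b). Same-numbered WT DP and CD27 arrays had r of 0.440, 0.139 and -0.009 for numbers 1, 2 and 3, so whether they pair is unclear. The numbers of KO and WT arrays do not pair (r of -0.073 to 0.190). No called value changed sign, and the block changed no other call of the receptor genes; other causes were not tested.

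Over all probe sets, fitting only the groups compared gave 14, 17 and 34 calls for KO against WT in CD27, DP and CD11b cells, against 321, 140 and 457, and 146 for CD11b against CD27 in KO, against 734. Averaging the arrays of a number first gave 71, against 2862. Blocks within genotype gave 3865 for CD11b against CD27 in WT, against 1771, and 2185 in KO, against 734. Leaving out single arrays gave 117 to 365, 46 to 199, 182 to 1094 and 1959 to 3519 calls for KO against WT in CD27, DP, CD11b cells and the average. Cyclic loess moved the share of calls that are higher in KO to 46.2%, against 28.3%, in CD27 cells and to 52.8%, against 34.7%, in the average. No second probe set could be tried, since each gene has 1. With 3 arrays in a group, differences within the 95% intervals could not be shown, and Klrh1 and Plcg1 lie at dim levels.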
